A study of Arabidopsis thaliana with 12 samples.

Results

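The 10 genes described here encode enzymes of the early plant sterol pathway and were taken by locus identifier from 27655 genes in each deposited table. They are the 6 squalene epoxidases SQE1 (AT1G58440), SQE2 (AT2G22830), SQE3 (AT4G37760), SQE4 (AT5G24140), SQP1 (AT5G24150, also SQE5) and SQE6 (AT5G24160), the HMG-CoA reductases HMG1 (AT1G76490) and HMG2 (AT2G17370), the squalene synthase SQS1 (AT4G34640) and the cycloartenol synthase CAS1 (AT2G07050). The RefSeq annotation gives the symbol SQP2 to AT5G24140, while other sources use it for AT5G24160, so SQE4 and SQE6 are used here. The set was selected on a measured value, the light rise of SQP1, one of the largest as a log2 change. The light responses of SQP1 and of the other members are therefore given as descriptions without a test.

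Sterols are made in the cytosol and endoplasmic reticulum from mevalonate, whose formation by HMG-CoA reductase is the main control point of the route. Squalene synthase joins a pair of farnesyl diphosphates into squalene, squalene epoxidase adds an oxygen atom to it, and cycloartenol synthase closes the product into the first plant sterol ring system. Later steps give the membrane sterols and, through a side route, the brassinosteroid hormones. Squalene epoxidase uses molecular oxygen. In Arabidopsis, loss of SQE1 causes strong growth defects. SQE1, SQE2 and SQE3 complement a yeast strain that lacks the enzyme, whereas SQP1 and its tandem copies belong to a separate branch of the family.

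RNA-seq was made from Arabidopsis thaliana seedlings grown for 6 days at 22 °C in continuous light, 3 libraries for each of 4 groups and about 100 seedlings for each library. The lines were flu1-1 ex1 and flu1-5 ex1. Both carry a mutation of FLU, which restrains chlorophyll precursor synthesis in darkness, so that light then produces singlet oxygen in the chloroplast. Both also carry a mutation of EX1 (EXECUTER1), a protein of the chloroplast through which singlet oxygen alters many nuclear genes. In each line, dark seedlings were taken at the end of a 4 h dark period, and light seedlings had 1 h of illumination following the same dark period. No group without these mutations is analysed here and none stayed in darkness for the further 1 h, so singlet oxygen, light itself and elapsed time cannot be told apart. Nothing in the labels says whether the libraries of a group came from separate cultures, so p-values measure only the spread between these libraries.

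Levels are in TPM (transcripts relative to all transcripts of a library), which are scaled for length, so that levels of different genes can be set side by side. Read depth is unknown, and between 17660 and 18169 genes had at least 1 TPM in a library. FLU stood at 184 to 197 TPM in the 6 flu1-1 ex1 libraries and at 13.2 to 17.0 TPM in the 6 flu1-5 ex1 libraries. The other mutated gene, EX1, also differed between the lines. Its means in the dark and after light were 40.1 and 51.0 TPM in flu1-1 ex1, and 45.3 and 81.0 TPM in flu1-5 ex1. The genotype label names flu1-1 for all libraries, and the groups follow the library descriptions. The tissue was checked with short gene lists. The summed level of 4 photosynthetic shoot genes was 33160 to 37336 TPM over the 6 dark libraries and 26655 to 29241 TPM over the 6 light libraries, lower after light in both lines. Most of that sum was RBCS1A and LHCB1.3. In the dark and after light, LHCB1.3 averaged 18395 and 11520 TPM in flu1-1 ex1 and 13534 and 9472 TPM in flu1-5 ex1. RBCS1A differed less, at 16117 and 15681 TPM in flu1-1 ex1, where its libraries overlapped, and 17807 and 16049 TPM in flu1-5 ex1. LHCB2.1 in the same list was higher after light, at means of 323 and 359 TPM in flu1-1 ex1 and 134 and 242 TPM in flu1-5 ex1. The summed level of 2 seed storage markers was 9.53 to 9.90 TPM in the dark and 2.34 to 4.82 TPM after light in flu1-1 ex1, against 5.59 to 7.56 and 4.99 to 8.23 TPM in flu1-5 ex1. The summed level of 4 root markers lay between 0.358 and 1.32 TPM in all libraries. This list showed little root RNA, and whether roots were part of the samples was not tested. In seedlings, fewer cells of a type and less RNA per cell cannot be told apart, and the part of the shoot and seed sums in the results below was not tested.

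HMG1, the main HMG-CoA reductase gene, was the most abundant of the 10 transcripts in all 4 groups, and its level was much lower after light. In flu1-1 ex1, the dark libraries had HMG1 at 478, 489 and 464 TPM and the light libraries had it at 221, 226 and 218 TPM. In flu1-5 ex1, HMG1 stood at 449.7, 460.0 and 442 TPM in the dark and at 203, 195 and 201 TPM after light. Dark and light libraries were far apart in both lines. The ratio of the dark mean to the light mean was 2.15 in flu1-1 ex1 and 2.26 in flu1-5 ex1, and the log2 changes were -1.10 (SE 0.028) and -1.17 (SE 0.029). Log2 changes here are differences of log2(TPM + 1), a scale that shrinks the change of genes at low levels. Counted from the strongest fall, HMG1 took place 1025 of 18042 genes tested in flu1-1 ex1 and place 702 of 18145 in flu1-5 ex1.

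HMG2, the minor reductase gene, was also lower after light, by a smaller margin. HMG2 stood at 7.60, 7.46 and 8.64 TPM in the flu1-1 ex1 dark libraries and at 6.12, 6.72 and 5.80 TPM after light. In flu1-5 ex1 its levels were 7.66, 7.78 and 7.23 TPM in the dark and 5.58, 5.88 and 5.29 TPM after light. The dark and light libraries did not overlap in either line. HMG1 made up 98.4% of the summed reductase level in the dark and 97.3% after light in both lines.

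SQS1, which makes squalene, differed little between dark and light, with a small difference of opposite sign in the lines. SQS1 stood at 59.7, 55.8 and 59.1 TPM in the dark and 60.4, 62.9 and 65.5 TPM after light in flu1-1 ex1. For flu1-5 ex1 the levels of SQS1 were 63.6, 65.9 and 64.6 TPM in the dark and 60.6, 59.0 and 58.9 TPM after light. The libraries did not overlap, with light above dark in flu1-1 ex1 and below it in flu1-5 ex1. The log2 changes of SQS1 were 0.11 and -0.12. Quantile normalization, which gives all libraries the same distribution, moved the median change of all genes in flu1-1 ex1 from 0.12 to -0.02 and turned the SQS1 change there to -0.03.

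**Figure D1:**
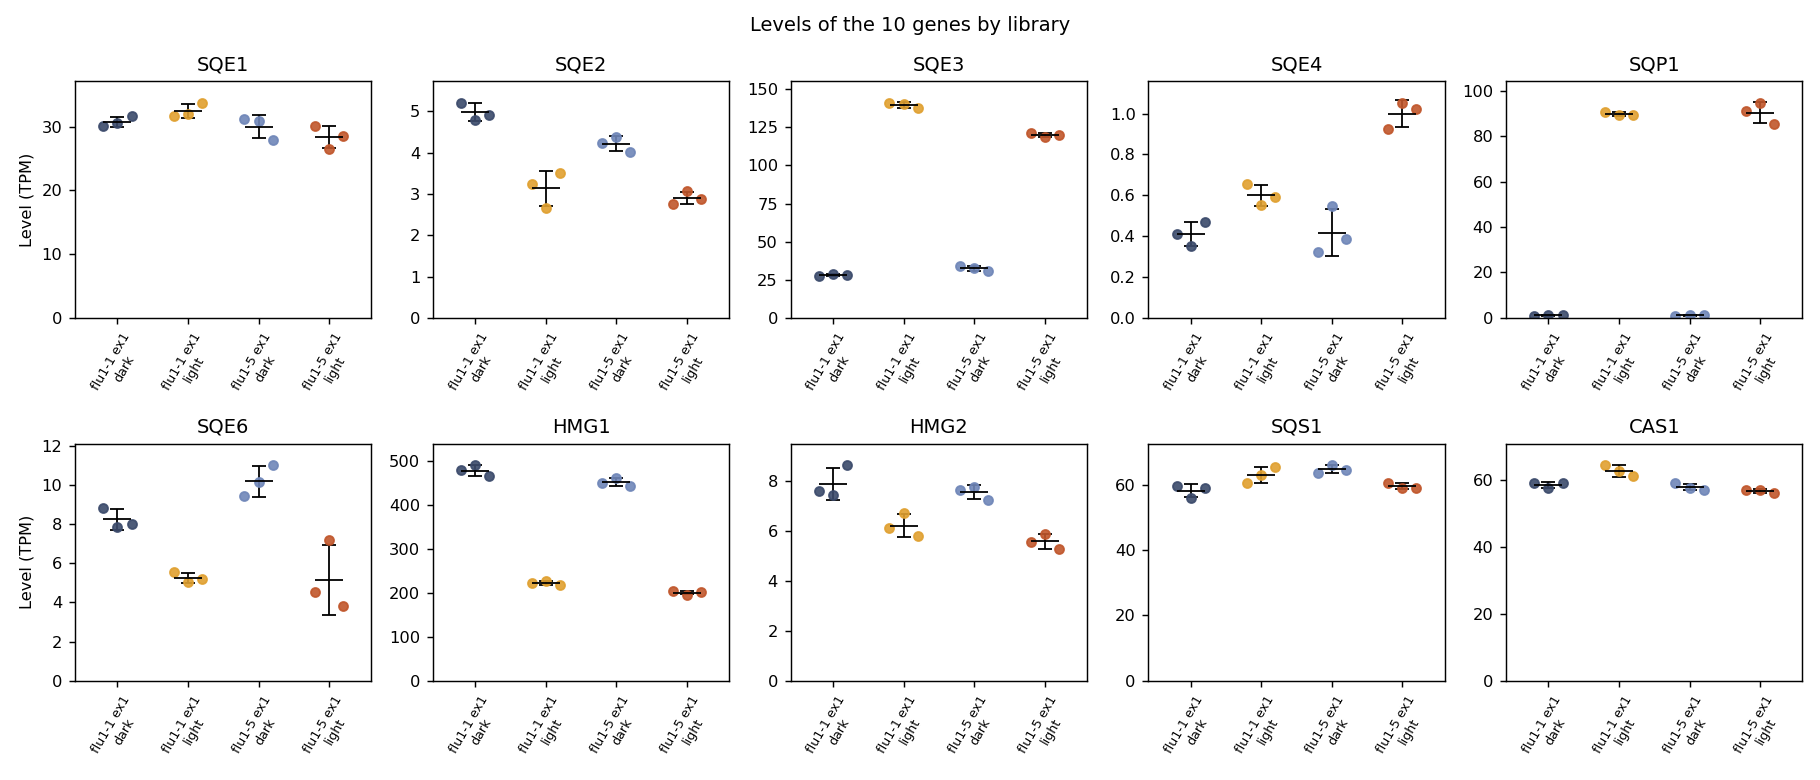
Level in TPM (vertical axes, linear and starting at 0) of each of the 10 genes in the 4 groups, with 1 point for each library and bars for the mean and SD of 3 libraries. SQP1 goes from a mean of 1.12 TPM to 90.4 TPM in flu1-5 ex1 and similarly in flu1-1 ex1, SQE3 is several times higher after light, HMG1 is lower after light, and SQE1, SQS1 and CAS1 stay close to their dark levels.

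The squalene epoxidases did not move together. SQP1 and SQE3 were far higher after light, SQE2 and SQE6 were lower, and SQE1 stayed close to its dark level. The summed level of the 6 genes was 73.6 ± 0.663 TPM (SD, n = 3) in the dark and 271 ± 1.87 TPM after light in flu1-1 ex1. In flu1-5 ex1 it was 78.4 ± 2.70 TPM (SD, n = 3) in the dark and 248 ± 5.49 TPM after light. Every light library lay above every dark library. In the dark, HMG1 alone exceeded the summed epoxidases, by a ratio of 6.48 ± 0.202 (SD, n = 3) in flu1-1 ex1 and 5.75 ± 0.125 in flu1-5 ex1. After light HMG1 was below them, at ratios of 0.818 ± 0.0155 and 0.807 ± 0.0289.

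SQP1 belongs to a run of adjacent genes on chromosome 5. In the RefSeq annotation of TAIR10.1, SQE4, SQP1, AT5G24155 and SQE6 follow each other on the reverse strand with no other protein-coding gene between them. The coding sequences of SQP1 and SQE6 are identical at 87.7% of aligned bases, while SQE4 is identical at 73.0% to SQP1 and at 72.9% to SQE6. SQE2 and SQE3, which lie on chromosomes 2 and 4, are identical at 79.3%. Between the branches, that is SQE1, SQE2 or SQE3 against a tandem gene, identity was 63.8% to 66.7%.

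The stretches upstream of 4 epoxidase genes are printed because SQP1 and SQE6, the closest pair in coding sequence, stood on opposite sides of their dark levels after light, and SQE3 is the other epoxidase gene that was far higher. SQE4 is the other epoxidase gene of the tandem run. Each sequence is the 250 bases before the transcript start, 5′ to 3′ on the gene's strand, from the RefSeq TAIR10.1 genome and its own coordinates. The submitters' processing notes name TAIR10, and the deposited tables give no coordinates. Capitals mark matches on either strand to the G-box CACGTG or the W-box core TTGAC.
SQP1, chr5:8175526-8175775, reverse strand: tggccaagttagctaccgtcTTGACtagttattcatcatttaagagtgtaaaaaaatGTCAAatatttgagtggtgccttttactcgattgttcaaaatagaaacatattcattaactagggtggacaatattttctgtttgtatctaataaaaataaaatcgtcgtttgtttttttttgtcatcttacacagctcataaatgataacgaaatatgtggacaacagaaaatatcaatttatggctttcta
SQE6, chr5:8186705-8186954, reverse strand: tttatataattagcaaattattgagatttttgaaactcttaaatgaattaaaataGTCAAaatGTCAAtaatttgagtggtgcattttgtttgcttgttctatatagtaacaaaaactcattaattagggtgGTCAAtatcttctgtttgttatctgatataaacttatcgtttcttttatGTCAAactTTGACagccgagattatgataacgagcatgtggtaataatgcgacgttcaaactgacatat
SQE4, chr5:8167777-8168026, reverse strand: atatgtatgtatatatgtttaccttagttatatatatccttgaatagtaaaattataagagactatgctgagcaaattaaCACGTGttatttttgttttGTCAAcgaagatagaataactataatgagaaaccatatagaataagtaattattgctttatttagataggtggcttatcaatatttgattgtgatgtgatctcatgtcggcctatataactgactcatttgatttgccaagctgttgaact
SQE3, chr4:17743488-17743737, forward strand: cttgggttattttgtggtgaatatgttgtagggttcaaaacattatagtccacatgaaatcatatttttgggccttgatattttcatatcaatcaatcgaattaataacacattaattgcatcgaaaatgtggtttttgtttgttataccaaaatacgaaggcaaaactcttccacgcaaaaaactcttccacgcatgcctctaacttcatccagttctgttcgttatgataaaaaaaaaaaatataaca

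The SQP1 and SQE6 stretches were identical at 72.5% of aligned bases, against 60.8% for SQP1 and SQE4 and 66.5% for SQP1 and SQE3. Over all 250 bases, gaps included, these shares were 68.4%, 54.0% and 55.6%. The identity of unrelated stretches was not computed. The W-box core, the letters that WRKY factors recognise, was found 2 times upstream of SQP1, 5 times upstream of SQE6 and 1 time upstream of SQE4. It was also found upstream of SQE1 and CAS1, so that 5 of the 10 genes held it, and 44.7% of 27443 promoters of the same length did too. The G-box was found upstream of SQE4 alone among the 10 genes, and 6.6% of promoters held it. Neither the heat shock element core GAANNTTC, held by 9.7% of promoters, nor the evening element AAAATATCT, held by 2.4%, was found upstream of any of the 10 genes on either strand. The motifs were chosen after the levels were known, and a match is a description of letters, not a site.

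SQP1 was nearly silent in the dark and among the more abundant members after light. The flu1-1 ex1 dark libraries had SQP1 at 0.964, 1.24 and 1.39 TPM, and the light libraries had it at 90.6, 89.1 and 89.2 TPM. In flu1-5 ex1 it stood at 0.999, 1.16 and 1.21 TPM in the dark and at 91.1, 94.8 and 85.3 TPM after light. The lines had much the same level in each condition. The ratio of the light mean to the dark mean was 74.8 in flu1-1 ex1 and 80.5 in flu1-5 ex1, the same values that the authors' deposited table lists as the fold. The log2 changes of SQP1 were 5.37 (SE 0.077) and 5.43 (SE 0.068), place 8 of 18042 genes and place 27 of 18145 counted from the strongest rise. On this scale the size depends on the pseudocount, since the dark level is close to 1 TPM: with a pseudocount of 0.1 TPM the log2 changes of SQP1 were 6.12 and 6.21, and with 5 TPM they were 3.93 and 3.96. By mean level, SQP1 took place 9 of the 10 genes in the dark and place 3 after light in both lines.

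SQE3 showed the other large difference among the epoxidases. In flu1-1 ex1, SQE3 stood at 27.3, 29.0 and 27.8 TPM in the dark and at 141, 140.3 and 137 TPM after light. In flu1-5 ex1, SQE3 stood at 33.9, 32.8 and 30.8 TPM in the dark and at 121, 118 and 119.9 TPM after light. The 6 light libraries lay far above the 6 dark libraries. SQE3 was 4.98 times its dark mean in flu1-1 ex1 and 3.69 times in flu1-5 ex1, with log2 changes of 2.27 (SE 0.035) and 1.85 (SE 0.042). Counted from the strongest rise it took place 338 of 18042 and place 603 of 18145.

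SQE1, the epoxidase gene best known from its mutants, was close to SQE3 in the dark and far below it after light. SQE1 stood at 30.2, 30.5 and 31.6 TPM in the dark and 31.6, 31.9 and 33.8 TPM after light in flu1-1 ex1. The flu1-5 ex1 libraries had it at 31.2, 30.9 and 27.9 TPM in the dark and 30.1, 26.5 and 28.5 TPM after light. In flu1-5 ex1 the dark and light libraries of SQE1 overlapped. The log2 changes of SQE1 were 0.07 (SE 0.043) and -0.08 (SE 0.062), and quantile normalization turned the first to -0.05.

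SQE2, the close relative of SQE3, was lower after light in both lines. SQE2 stood at 5.21, 4.79 and 4.92 TPM in the dark and 3.24, 2.66 and 3.50 TPM after light in flu1-1 ex1. The levels in flu1-5 ex1 were 4.24, 4.38 and 4.01 TPM in the dark and 2.76, 3.06 and 2.87 TPM after light. The groups did not overlap, and the log2 changes of SQE2 were -0.54 (SE 0.104) and -0.42 (SE 0.090).

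SQE6, the tandem copy closest to SQP1, was lower after light. SQE6 stood at 8.84, 7.86 and 8.04 TPM in the dark and 5.54, 5.06 and 5.18 TPM after light in flu1-1 ex1. In flu1-5 ex1 it stood at 9.44, 10.2 and 11.0 TPM in the dark and 4.52, 7.18 and 3.79 TPM after light. The second flu1-5 ex1 light library stood apart from the other 2, although still below the dark libraries. The log2 changes of SQE6 were -0.56 (SE 0.078) and -0.90 (SE 0.18), and the latter was -1.12 without that library. The ratio of SQP1 to SQE6 was 0.147 ± 0.0336 (SD, n = 3) in the dark and 17.1 ± 0.640 after light in flu1-1 ex1, and 0.110 ± 0.00406 and 18.6 ± 4.84 in flu1-5 ex1.

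SQE4 was the lowest of the 10 genes and averaged under 1 TPM over the libraries, so the filter on low values left it out of the tests. SQE4 stood at 0.413, 0.350 and 0.468 TPM in the dark and 0.655, 0.552 and 0.593 TPM after light in flu1-1 ex1. Its flu1-5 ex1 levels were 0.323, 0.546 and 0.384 TPM in the dark and 0.925, 1.05 and 1.02 TPM after light. The light libraries lay above the dark ones in both lines, at levels that carry little weight without a read number. With the filter lifted, SQE4 was higher in flu1-5 ex1 than in flu1-1 ex1 after light, by 0.32 on the log2 scale (limma adjusted p = 0.00444), and its light responses differed by 0.32 (limma adjusted p = 0.0416), while in the dark it differed by 0.005 (limma adjusted p = 1.0).

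The tandem copies could share reads. Of the stretches of 31 bases in the SQP1 transcript, 39 of 1945 (2.01%) also occur in another gene's transcript, 29 of them in SQE6, 9 in SQE4 and 1 in AT5G24155. For SQE6 the shared part was 1.45%, all with SQP1, and for SQE4 it was 0.48%. SQE2 and SQE3 shared 0.23% with each other, and no stretch of SQE1, HMG1 or HMG2 was shared. SQE6 was lower after light while SQP1 was higher, and how the authors' estimate divided shared reads was not tested.

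**Figure D2:**
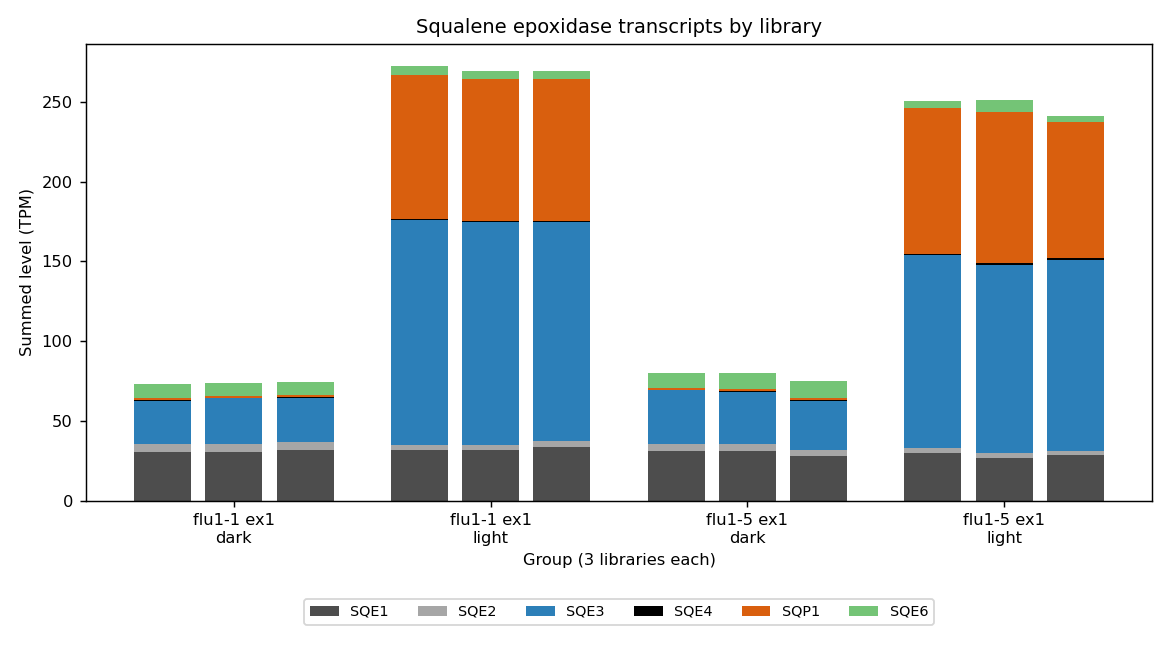
Summed level in TPM (vertical axis, starting at 0) of the 6 squalene epoxidase genes in each of the 12 libraries, with each bar divided by gene. SQP1 and SQE3 fill most of each light bar, and SQE1 and SQE3 fill most of each dark bar.

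The make-up of the epoxidase transcripts differed between dark and light. SQE1 made up 41.8% ± 0.686 (SD, n = 3) of the summed level in the dark and 11.99% ± 0.487 after light in flu1-1 ex1. SQP1 made up 1.63% ± 0.282 in the dark and 33.1% ± 0.0825 after light there. SQE3 had the largest share after light, at 51.6% ± 0.568, against 38.1% ± 1.05 in the dark. In flu1-5 ex1, SQE3 rather than SQE1 had the largest share in the dark. There SQE1 went from 38.2% ± 1.04 to 11.5% ± 0.778, SQP1 from 1.44% ± 0.182 to 36.5% ± 1.22 and SQE3 from 41.4% ± 0.793 to 48.4% ± 1.25. SQE6 made up 11.2% and 13.0% in the dark and 1.94% and 2.08% after light. SQE2 and SQE4 together were a small part in all groups.

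CAS1, the enzyme that closes the ring system after the epoxidase step, stayed near 60 TPM throughout. CAS1 stood at 59.3, 57.7 and 59.2 TPM in the dark and 64.5, 62.7 and 61.2 TPM after light in flu1-1 ex1. In flu1-5 ex1 it stood at 59.1, 57.8 and 57.2 TPM in the dark and 57.1, 57.1 and 56.2 TPM after light. The libraries did not overlap in flu1-1 ex1, and in flu1-5 ex1 the highest light library fell just short of the lowest dark library. The log2 changes of CAS1 were 0.10 and -0.03, and quantile normalization turned the first to -0.04. CAS1 and SQS1 had nearly equal levels, with ratios of CAS1 to SQS1 between 0.897 and 1.01 in the 4 groups.

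**Figure D3:**
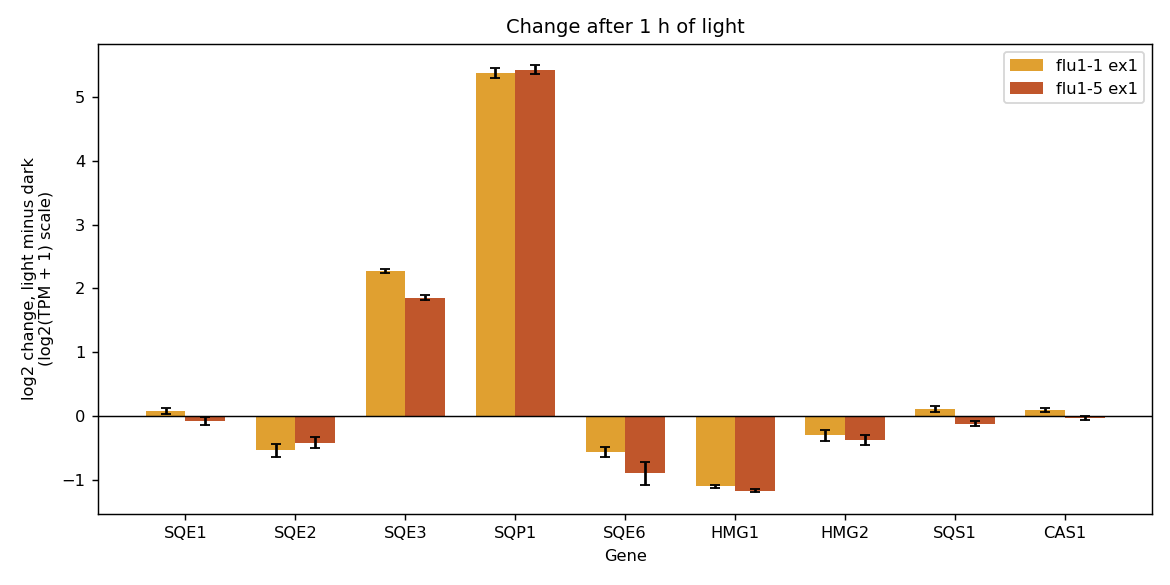
Log2 change from dark to light on the log2(TPM + 1) scale (vertical axis) for the 9 genes that passed the filter on low values, in both lines, with bars for the SE of limma's fit. SQP1 and SQE3 stand above 0, HMG1, HMG2, SQE2 and SQE6 below it, and SQE1, SQS1 and CAS1 close to it.

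The light response was very wide over all genes. At an adjusted p below 0.05 in limma, 44.0% of the genes tested were higher after light in flu1-1 ex1 and 28.6% were lower, 72.6% in all. In flu1-5 ex1, 38.4% of all genes were higher and 29.3% lower, 67.8% in all. These shares include the members, but no count of members called is given, because they were chosen with the light contrast known. Under quantile normalization the share of higher genes among all calls was 48.7% in place of 60.6% in flu1-1 ex1, and 44.7% in place of 56.7% in flu1-5 ex1.

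The lines were next compared in the dark, with the spread estimated over all 12 libraries. SQE3 and SQS1 were higher in flu1-5 ex1 than in flu1-1 ex1, each by a small margin. SQE3 averaged 32.5 ± 1.56 TPM in flu1-5 ex1 and 28.1 ± 0.840 TPM in flu1-1 ex1 (SD, n = 3), a log2 difference of 0.20 (SE 0.037, limma adjusted p = 0.0017). SQS1 averaged 64.7 ± 1.15 and 58.2 ± 2.12 TPM, a log2 difference of 0.15 (SE 0.038, limma adjusted p = 0.012), which no longer passed without the second flu1-1 ex1 dark library (adjusted p = 0.057). These were 2 of 9 members tested, where 20.4% of all genes tested passed, 14.7% being higher and 5.68% lower in flu1-5 ex1. The share of higher genes among all calls was 72.1%, or 55.5% under quantile normalization.

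The other 7 members did not pass in the dark. SQP1 differed by -0.05 on the log2 scale, with a 95% interval of -0.20 to 0.11, and the limma adjusted p was 0.717. SQE6 differed by 0.28, with an interval of -0.05 to 0.60 (limma adjusted p = 0.231). HMG1 differed by -0.08 (limma adjusted p = 0.053) and passed without flu1-1 ex1 dark library 3 (adjusted p = 0.0371), flu1-5 ex1 dark library 2 (0.0481) or flu1-5 ex1 light library 2 (0.0485). SQE2 differed by -0.20 (limma adjusted p = 0.151). SQE6 was the member whose spread limited the comparison, and without the second flu1-5 ex1 light library, which enters through the common estimate of spread, its adjusted p was 0.0347. SQE1, HMG2 and CAS1 differed by -0.04, -0.05 and -0.02.

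After light, 4 members were lower in flu1-5 ex1 than in flu1-1 ex1. SQE3 averaged 119.8 ± 1.39 TPM in flu1-5 ex1 and 139.6 ± 2.03 TPM in flu1-1 ex1 (SD, n = 3), a log2 difference of -0.22 (SE 0.037, limma adjusted p = 0.00041). HMG1 averaged 199.8 ± 4.10 and 222 ± 3.78 TPM, a difference of -0.15 (SE 0.028, limma adjusted p = 0.000861). CAS1 averaged 56.8 ± 0.515 and 62.8 ± 1.66 TPM, a difference of -0.14 (SE 0.031, limma adjusted p = 0.00248). For these 3 genes and for SQE1, no library of flu1-5 ex1 reached any library of flu1-1 ex1. The share of all genes without such overlap was not computed. SQE1 averaged 28.4 ± 1.78 and 32.4 ± 1.16 TPM, a difference of -0.19 (SE 0.055, limma adjusted p = 0.0147), and it no longer passed without flu1-1 ex1 light library 3 (adjusted p = 0.0604) or without the second flu1-5 ex1 light library (adjusted p = 0.0667).

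The 4 were among 8 members tested without SQP1, where 39.1% of all genes tested passed, 18.1% being higher and 21.0% lower in flu1-5 ex1. SQS1, HMG2, SQE2 and SQE6 differed by -0.08, -0.13, -0.08 and -0.06 and did not pass, although SQE6 did without the second flu1-5 ex1 light library (-0.28, adjusted p = 0.0328). SQP1 averaged 89.7 ± 0.836 TPM in flu1-1 ex1 and 90.4 ± 4.80 TPM in flu1-5 ex1 (SD, n = 3), a log2 difference of 0.01, given without a test because the light rise of SQP1 chose the set.

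**Figure D4:**
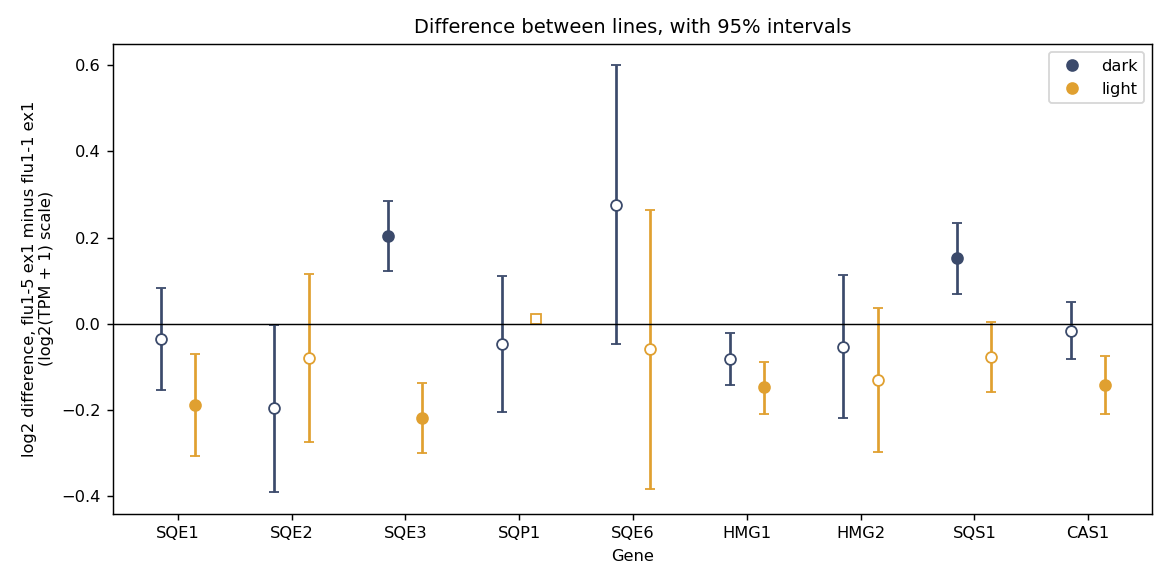
Log2 difference between the lines, flu1-5 ex1 minus flu1-1 ex1 on the log2(TPM + 1) scale (vertical axis), in the dark and after light, with 95% intervals, for the 9 genes that passed the filter on low values. Filled points passed an adjusted p of 0.05, open points did not, and the open square for SQP1 after light is a value without a test. SQE3 lies above 0 in the dark and below 0 after light.

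The light response of SQE3 was smaller in flu1-5 ex1 than in flu1-1 ex1. SQE3 had a higher dark level and a lower light level in flu1-5 ex1, and its light responses differed by -0.42 on the log2 scale (SE 0.053, limma adjusted p = 5.87e-05). The responses of SQS1 differed by -0.23 (SE 0.053, limma adjusted p = 0.00583). The responses of CAS1 differed by -0.13 (SE 0.044, limma adjusted p = 0.0457), a difference that did not pass under quantile normalization (adjusted p = 0.104), with the replicate number as a block (adjusted p = 0.0545), or without any single library other than flu1-1 ex1 light library 3 (adjusted p = 0.0533 to 0.106). These 3 of 8 members compare with 29.6% of all genes tested, with 11.3% having a higher and 18.3% a lower response in flu1-5 ex1.

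The other members did not pass the test of the difference in light responses. HMG1 differed by -0.07, HMG2 by -0.08, SQE1 by -0.15 and SQE2 by 0.12. SQE6 differed by -0.34, with a 95% interval of -0.79 to 0.12 (limma adjusted p = 0.261), and by -0.56 without the second flu1-5 ex1 light library (adjusted p = 0.00572). So 1 library decided the call for SQE6. SQP1 differed by 0.06 (SE 0.103), given without a test.

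The steps before and after these genes were followed in lists of other pathway genes. Before squalene, 12 further genes of mevalonate and isoprenoid synthesis were tested. In flu1-1 ex1, 4 rose and 3 fell after light, where 44.0% of all genes rose and 28.6% fell. In flu1-5 ex1, 2 rose and 4 fell, where 38.4% of all genes rose and 29.3% fell, with median log2 changes of 0.01 and -0.05 beside 0.12 and 0.05 for all genes. SQS2, the second squalene synthase gene, was higher after light in both lines. It averaged 1.303 ± 0.120 TPM in the dark and 5.54 ± 0.571 TPM after light in flu1-1 ex1, against 0.898 ± 0.0889 and 4.44 ± 0.386 TPM in flu1-5 ex1 (SD, n = 3), with log2 changes of 1.50 and 1.52. In flu1-5 ex1 SQS2 passed the filter only through its light libraries, so its count among the rises there carries no weight. SQS2 and SQS1 share some sequence (10 stretches of 31 bases), so their estimates could share reads. PMK (phosphomevalonate kinase) rose by 0.77 and 0.50, and FPS1 (farnesyl diphosphate synthase) changed by -0.37 and -0.41, each past the limma threshold. After light, 8 of the 12 genes were lower in flu1-5 ex1 than in flu1-1 ex1, where 21.0% of all genes were lower.

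After CAS1, 8 genes of sterol synthesis rose and 8 fell of 22 tested in flu1-1 ex1, beside 44.0% and 28.6% of all genes. In flu1-5 ex1, 5 rose and 11 fell of 23, beside 38.4% and 29.3% of all genes, and 1 of the 5, CYP710A1, passed the filter only through its light libraries. The difference in these counts between directions or lines was not tested. SMT3, a sterol methyltransferase, had the strongest fall of the list on the log2(TPM + 1) scale in both lines. It averaged 82.9 ± 0.471 TPM in the dark and 26.3 ± 1.45 TPM after light in flu1-1 ex1, against 69.0 ± 1.98 and 26.8 ± 0.522 TPM in flu1-5 ex1 (SD, n = 3). Its relative SMT2 changed by -0.73 and -0.54 on the log2 scale, and DWF1, a late reductase of the route to campesterol, by -0.57 and -0.78. CYP710A2, which makes brassicasterol and stigmasterol, had the strongest rise on that scale, by 1.29 and 0.89. By the ratio of means, UGT80B1 was higher in flu1-1 ex1, at 2.98 against 2.67 for CYP710A2, and CYP710A1 in flu1-5 ex1, at 2.47 against 1.96. The ratio of UGT80B1 in flu1-5 ex1 was 0.983 and did not pass, but the transcript given for this gene differs between the lines.

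In brassinosteroid synthesis, falls made up all of the calls after light, 5 of 7 genes tested in flu1-1 ex1 and 7 of 7 in flu1-5 ex1, beside 28.6% and 29.3% of all genes, with median log2 changes of -0.58 and -0.50 beside 0.12 and 0.05 for all genes. The list includes BAS1, which inactivates the hormones and changed by 0.08 and -0.50, the latter past the threshold. CPD, a cytochrome P450 of the hormone route, fell in flu1-1 ex1 from a mean of 229 ± 4.06 TPM to 67.6 ± 2.05 TPM, and in flu1-5 ex1 from 220.2 ± 4.13 TPM to 86.6 ± 1.92 TPM (SD, n = 3). DWF4, the rate-limiting hydroxylase of the route, changed by -1.25 and -0.76 on the log2 scale. The falls of both were weaker in flu1-5 ex1, by 0.41 for CPD (limma adjusted p = 1.23e-05) and 0.49 for DWF4 (limma adjusted p = 0.00122). In the plastid route to isoprenoids, 2 genes rose and 2 fell of 7 in flu1-1 ex1, beside 44.0% and 28.6% of all genes. In flu1-5 ex1, 2 of the 7 rose and 3 fell, beside 38.4% and 29.3% of all genes. Among genes for other squalene-derived triterpenes, 4 of 11 were high enough to test in flu1-1 ex1 and 3 in flu1-5 ex1, and THAS1, thalianol synthase, rose in both, by 0.52 and 1.03.

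**Figure D5:**
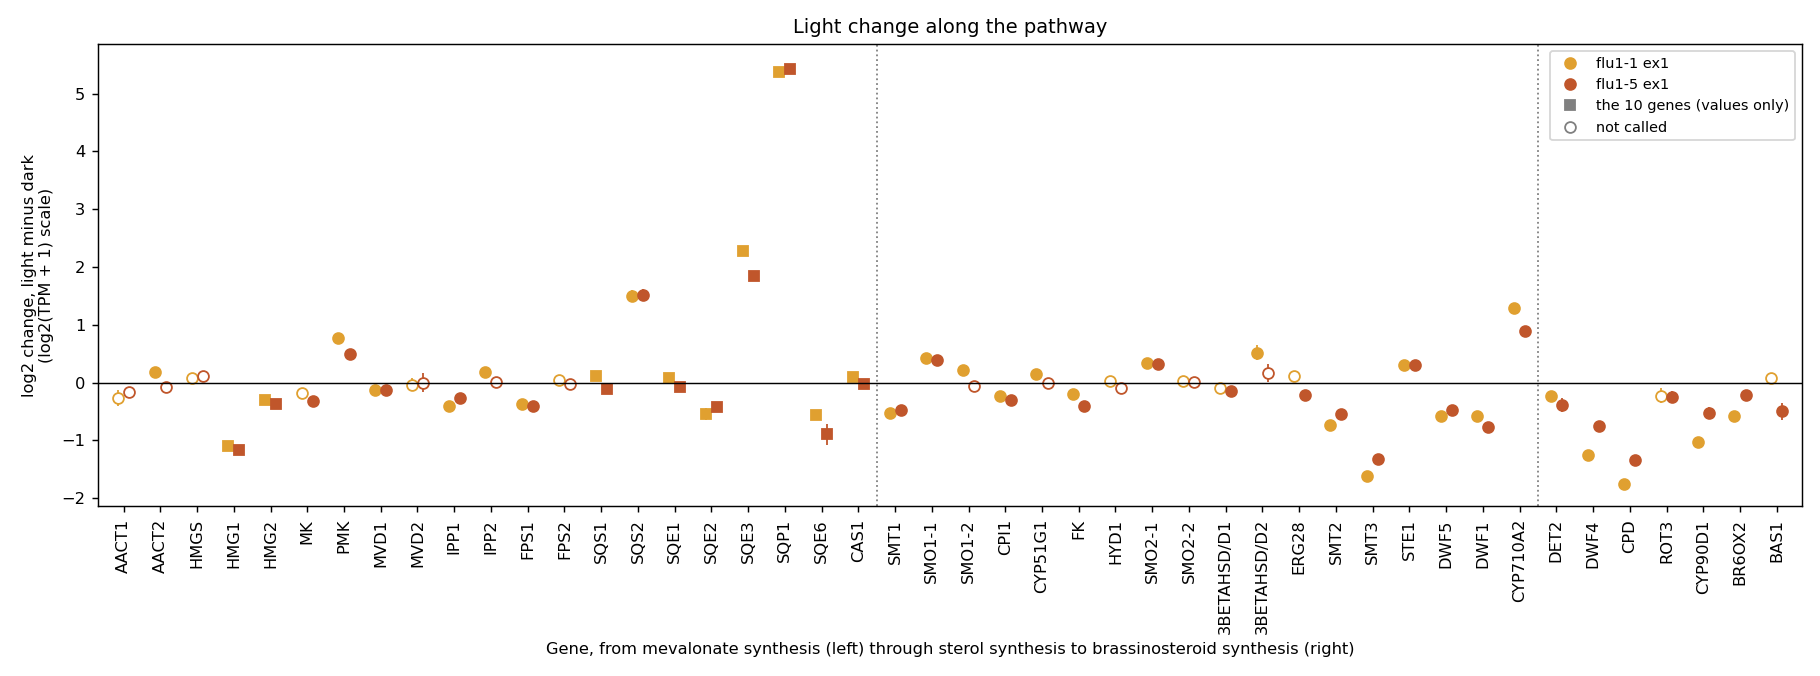
Log2 change from dark to light on the log2(TPM + 1) scale (vertical axis) along the pathway, from mevalonate synthesis on the left through sterol synthesis to brassinosteroid synthesis on the right, for both lines. Squares are the 10 genes described here that were tested, given as values only, filled circles passed an adjusted p of 0.05, open circles did not, and bars are SE. SQP1 and SQE3 stand above all other genes plotted, and most genes on the far right lie below 0.

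The genes around SQP1 on chromosome 5 were also followed, taking all those between AT5G24100 and AT5G24200 that are not members. Of 11, 6 averaged at least 1 TPM, and AT5G24155 and WRKY30 did so only through their light libraries, so they are given as values. Of the other 4, AGP41, SIGE and AT5G24165 rose in both lines, where 44.0% and 38.4% of all genes rose. AT5G24155, annotated as an oxidoreductase of the FAD/NAD(P)-binding family and lying between SQP1 and SQE6, stood at 0.184, 0 and 0.0902 TPM in the flu1-1 ex1 dark libraries and at 9.45, 10.5 and 12.8 TPM after light. It averaged 0.0454 ± 0.0787 TPM in the dark and 11.0 ± 0.322 TPM after light in flu1-5 ex1 (SD, n = 3), and every light library lay above every dark library. SIGE (also SIG5, AT5G24120), a sigma factor of the chloroplast RNA polymerase, rose in flu1-1 ex1 from a mean of 3.44 ± 0.0869 TPM to 121 ± 3.54 TPM, and in flu1-5 ex1 from 4.64 ± 0.534 TPM to 137 ± 1.76 TPM (SD, n = 3). WRKY30, a WRKY factor gene, averaged 0.104 TPM in the dark and 2.37 TPM after light in flu1-1 ex1, against 0.542 and 7.78 TPM in flu1-5 ex1. AT5G24170, beyond SQE6, did not pass in either line.

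The 5 genes whose log2(TPM + 1) was most like that of SQP1 over the 12 libraries were the HSP90 chaperone genes HSP81-2 (AT5G56030, Pearson r = 0.99972) and HSP81-3 (AT5G56010, 0.99923), AT2G44670 (0.9994), annotated as a senescence-associated protein, AT3G09440 (0.99903), annotated in the Hsp70 family, and AT2G27420 (0.99897), annotated as a cysteine proteinase. HSP81-2 averaged 69.7 ± 2.95 TPM in the dark and 1209.8 ± 6.87 TPM after light in flu1-1 ex1 (SD, n = 3). AT2G27420 averaged 0.145 TPM in the flu1-1 ex1 dark libraries and 0.222 TPM in those of flu1-5 ex1, so it passed the filter only through its light libraries. The libraries form a dark set and a light set, so any gene with a large and even light response has a high r, and 505 of 17829 genes reached 0.99.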

How the data were processed

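Per the labels, a DNBSEQ-T7 instrument read the libraries. The authors deposited a table for each line with TPM for 6 libraries, a linear fold and a p-value for each of 27655 genes, 1 transcript per gene. The submitters' processing notes name kallisto 0.46.2, sleuth 0.30.0 and TAIR10 without their roles. The TPM sums were 929954 to 935224 in a library. No other transcript is used here. The fold and p-value columns of the deposited tables hold some spreadsheet errors.

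Genes averaging 1 TPM or more were tested as log2(TPM + 1) with limma 3.58.1 (R 4.3.3, trend and robust moderation, statmod 1.5.0), two-sided, with Benjamini-Hochberg adjustment over all genes tested and a threshold of 0.05. Light was tested within each line on 6 libraries. The lines, and the difference of light responses, were tested on 12 libraries, without 971 genes whose transcript differs between tables. The procedure was tested on simulated data. Sequences came from RefSeq TAIR10.1, which held 27445 of the loci. Replicate numbers were not used to pair libraries in the main tests.

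Members and lists were chosen with earlier results of these data known. For each other list and comparison, up to 3 rises and 3 falls could be named. Alternatives were quantile normalization, other filters and pseudocounts, the deposited p-value, the replicate block and leaving out each library.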

Additional observations from a re-analysis of the deposited data

Results flagged for a closer look

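Of 60 genes of the set and of the pathway lists, the light responses of 18 differed between flu1-1 ex1 and flu1-5 ex1 in limma's interaction test, beside 29.6% of all genes. The naming rule leaves out 4 of them, SMO1-2, CYP51G1, DWF1 and BR6OX2, which are named after their values were seen. Differences are given here as flu1-5 ex1 minus flu1-1 ex1 on the log2(TPM + 1) scale. Among the members these were SQE3 (-0.42, adjusted p = 5.87e-05), SQS1 (-0.23, adjusted p = 0.00583) and CAS1 (-0.13, adjusted p = 0.0457).

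In mevalonate synthesis, AACT2 (acetoacetyl-CoA thiolase) differed by -0.26 (adjusted p = 0.00722) and PMK by -0.28 (adjusted p = 8.1e-05). In sterol synthesis, the methyltransferase genes SMT2 and SMT3 differed by 0.19 (adjusted p = 0.00559) and 0.29 (adjusted p = 0.00214), so both falls were weaker in flu1-5 ex1. Their dark levels differed between lines by -0.18 (limma adjusted p = 0.00107) and -0.26 (limma adjusted p = 0.000462). Their light levels differed by 0.01 and 0.03 and did not pass. ERG28 differed by -0.32 (adjusted p = 0.0459), CYP710A2 by -0.40 (adjusted p = 0.0303) and ASAT1, a sterol acyltransferase, by -0.62 (adjusted p = 0.00565). DWF1 differed by -0.20 (adjusted p = 0.00452), CYP51G1 by -0.16 (adjusted p = 0.0358) and SMO1-2 by -0.27 (adjusted p = 0.0372). ASAT1 had a higher dark level in flu1-5 ex1, 4.06 ± 0.472 against 2.19 ± 0.229 TPM (SD, n = 3).

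In brassinosteroid synthesis, DWF4 differed by 0.49 (adjusted p = 0.00122), CPD by 0.41 (adjusted p = 1.23e-05) and CYP90D1 by 0.51 (adjusted p = 0.0106). BR6OX2 differed by 0.36 (adjusted p = 0.00546). BAS1, which inactivates brassinosteroids, differed by -0.58 (adjusted p = 0.0172).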

How the results depend on the processing

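Without read numbers the counting error is unknown, and the least abundant members, SQE4, SQE2 and SQP1 in the dark, are the least certain. Quantile normalization reversed the light changes of CAS1 (-0.044) and SQS1 (-0.028) in flu1-1 ex1, where it also moved the median of all genes. It brought SQE2 past the threshold between lines in the dark (adjusted p = 0.0487), and a mean of at least 5 TPM did so for HMG1 (adjusted p = 0.0473). In each case the cause was not tested.

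With a library left out, the number of genes called was 12429 to 12657 for light in flu1-1 ex1 (13097 with all), 11563 to 11724 in flu1-5 ex1 (12297), 2872 to 3614 for lines in the dark (3630), 6077 to 6905 for lines after light (6972) and 4686 to 4985 for the difference of light responses (5273). Lifting the filter on low values added SQE4 to the members called between lines after light (5) and for the difference of light responses (4). With a library left out, 1 to 4 of 9 members tested passed between lines in the dark, and 3 to 4 of 8 after light. For the difference of light responses, 2 to 3 of 8 passed. In the main setting the shares of all genes that passed were 20.4%, 39.1% and 29.6%. The replicate number as a block gave 13129, 11956, 3401, 6779 and 5060 genes, and among the members it changed the call of CAS1 alone. Between same-numbered libraries of different groups, deviations of the genes from their group means correlated at -0.05 to 0.14. Between libraries with different numbers these correlations were -0.08 to 0.08. The highest, 0.14, was between dark and light library 3 of flu1-1 ex1, and whether these were handled together was not tested. The deposited p-value for light, after Benjamini-Hochberg adjustment over the genes tested here, was below 0.05 for 15964 genes in flu1-1 ex1 and 15702 in flu1-5 ex1.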
